A study of Mus musculus with 18 samples.

Results

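Metallothioneins and zinc transporters were followed through the first 3 days after myocardial infarction (MI) in the mouse heart. The set held 6 genes, namely Mt1, Mt2, Mtf1, Slc39a14, Slc39a8 and Slc30a1, and each was found in the count table by its Ensembl identifier, giving 6 of 30583 genes. All 6 passed the filter on low counts. The data were RNA-seq read counts from 18 male mice of the strain labelled C57BL/6JR, each 12 weeks old, with 3 mice in each of 6 groups. In the 5 MI groups the left anterior descending coronary artery was tied, and tissue was taken 10 min, 1 h or 6 h, or else 24 h or 72 h, after that; the sham animals had the suture passed under the artery and left untied. All groups received pentobarbital for the operation and isoflurane before killing. The labels place the sham group at 0 h, so that ligation cannot be told apart from time since the operation in any comparison with sham. RNA came from the infarcted region of the left ventricle, with 1 library per mouse. The comparisons ask how each gene's transcript level moved from the first minutes of ischaemia to the third day.

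Metallothioneins are small, cysteine-rich proteins that bind zinc and copper and buffer their free concentration in the cell. Their genes are switched on by zinc through MTF1, the metal-responsive transcription factor, which binds short metal response elements in their promoters; glucocorticoids, inflammatory cytokines and oxidative stress are also known inducers. Zinc enters the cytosol through ZIP transporters, the Slc39 family, and leaves it through ZnT transporters, the Slc30 family. Slc39a14 (ZIP14) and Slc39a8 (ZIP8) both carry zinc, iron and manganese across the plasma membrane, and Slc30a1 (ZnT1) is the plasma membrane exporter and a known MTF1 target.

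Mt1 (ENSMUSG00000031765) lies on the plus strand at chr8:94179082-94180327 of GRCm38, and Mt2 (ENSMUSG00000031762) lies beside it on the same strand at chr8:94172664-94173568. Only 5513 bases separate the end of Mt2 from the start of Mt1. Mtf1 (ENSMUSG00000028890) is at chr4:124802104-124849800 on the plus strand. Slc39a14 (ENSMUSG00000022094) is at chr14:70303469-70351425 on the minus strand, Slc39a8 (ENSMUSG00000053897) at chr3:135825279-135888572 on the plus strand and Slc30a1 (ENSMUSG00000037434) at chr1:191906767-191913247 on the plus strand. All 6 are protein-coding in GENCODE M21. Counts are over all exons of a gene, with the untranslated regions included.

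RefSeq promoter windows on GRCm38.p6, from 250 bases before to 50 bases after the annotated start, were found for 5 of the 6 genes; Slc39a14 had no entry. The metal response element core was searched as TGCACNC or TGCGCNC on both strands, and 25.7% of the 32851 promoters in the table held it at least once. The windows of Mt1 (chr8:94178839-94179138), Mt2 (chr8:94172368-94172667) and Slc30a1 (chr1:191906531-191906830), all on the plus strand, are printed because they held more than 1 match. Capitals mark the matches, read on either strand.
Mt1: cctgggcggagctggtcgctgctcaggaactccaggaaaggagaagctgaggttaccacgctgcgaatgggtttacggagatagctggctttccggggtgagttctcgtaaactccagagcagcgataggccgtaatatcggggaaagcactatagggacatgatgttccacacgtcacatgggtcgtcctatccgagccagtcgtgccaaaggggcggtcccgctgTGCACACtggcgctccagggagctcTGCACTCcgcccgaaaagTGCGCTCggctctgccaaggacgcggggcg
Mt2: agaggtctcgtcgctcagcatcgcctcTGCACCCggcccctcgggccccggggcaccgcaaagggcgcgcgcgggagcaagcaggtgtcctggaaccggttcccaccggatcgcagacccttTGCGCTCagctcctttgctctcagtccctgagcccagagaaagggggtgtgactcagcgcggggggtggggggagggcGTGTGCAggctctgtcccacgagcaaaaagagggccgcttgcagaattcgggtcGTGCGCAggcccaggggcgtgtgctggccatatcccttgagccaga
Slc30a1: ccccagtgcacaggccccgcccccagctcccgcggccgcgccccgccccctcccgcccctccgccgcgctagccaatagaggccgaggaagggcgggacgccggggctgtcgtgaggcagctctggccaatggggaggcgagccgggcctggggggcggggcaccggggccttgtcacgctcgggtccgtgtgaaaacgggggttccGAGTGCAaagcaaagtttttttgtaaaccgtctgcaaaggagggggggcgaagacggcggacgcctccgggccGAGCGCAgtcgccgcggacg

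The Mt2 window held 4 matches, a number reached by 0.517% of all promoters, and the Mt1 window held 3, reached by 1.97%. Slc30a1 held 2, reached by 7.11%. Mtf1 itself held 0 in its window, and the 2 Slc39a8 windows held 0 and 1. The antioxidant response core TGACNNNGC, present in 12.4% of promoters, occurred once each in the Mt2 and Slc30a1 windows and once in 1 Slc39a8 window. The STAT element TTCNNNGAA, present in 8.3%, was found in none of the 6 windows of these 5 genes. TGTTCT, the core bound by the glucocorticoid receptor, was present in 19% of promoters and among these windows only in that of Mtf1. The hypoxia core ACGTG, present in 19.6%, occurred once in the Mt1 window and as 2 overlapping matches on opposite strands in 1 Slc39a8 window. A match records the letters only and says nothing of binding in these hearts. The windows follow the annotated start, and the start used in these hearts was not examined. Bases outside the windows were not searched, so a count is not that of a whole promoter.

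**Figure D1:**
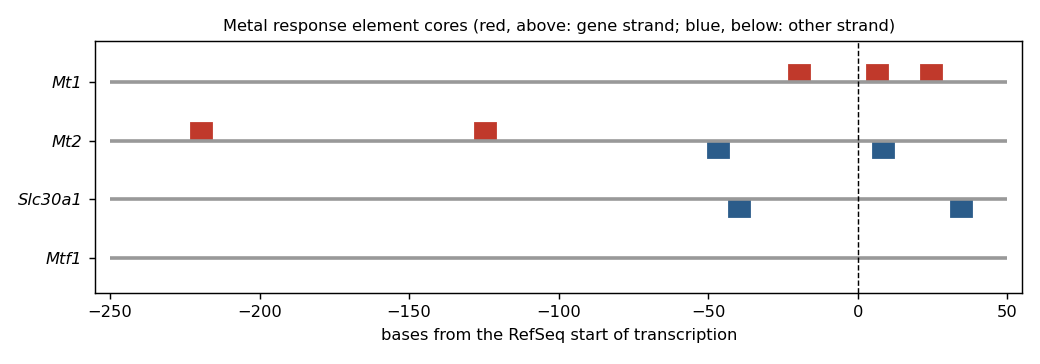
Position of each metal response element core in the promoter windows of Mt1, Mt2, Slc30a1 and Mtf1, in bases from the RefSeq start (horizontal axis); red boxes above a line match on the gene's strand and blue boxes below it on the other strand. The 3 Mt1 matches lie within about 30 bases of the annotated RefSeq start, on the gene's strand. The 4 Mt2 matches are spread over the window on both strands, and the Mtf1 window has none.

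Libraries held 18199172 to 25062351 counts. The share of counts from mitochondrial genes was 22.3 to 27.4% from sham to 6 h, 17.7 to 24.0% at 24 h and 8.4 to 10.5% at 72 h. The labels also give cardiomyocytes as the cell type, but all 6 endothelial and all 7 fibroblast markers listed had counts in every sham library, so the libraries are read here as whole tissue. Levels below are CPM, counts brought to a common library total after scaling by the trimmed mean of M values (TMM). The summed CPM of 8 cardiomyocyte markers was 61400 to 67100 in sham, 53300 to 65500 at 6 h, 27000 to 41100 at 24 h and 15600 to 21000 at 72 h. Over the same groups, 7 neutrophil markers summed to 3.03 to 4.56 (with Ly6g at 0 in all sham libraries), 101 to 752, 43 to 745 and 59.2 to 73.5, and 8 macrophage and monocyte markers to 188 to 210, 180 to 422, 513 to 826 and 2750 to 3560. The 7 fibroblast markers were at 702 to 783 in sham and 9970 to 12500 at 72 h. In bulk tissue, fewer cells of a type and less RNA per cell cannot be told apart.

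Both metallothionein genes rose steeply by 6 h and were still raised at 24 h, the importer Slc39a14 was higher at the same times with smaller fold changes, and Slc39a8 was raised at 6 h, a call that rested on 1 heart, and at 72 h. The exporter Slc30a1 and the regulator Mtf1 passed no comparison with sham up to 24 h with TMM scaling and had their lowest levels at 72 h. In edgeR's quasi-likelihood test over all 6 groups, all 6 genes passed an adjusted p of 0.05, where 78.4% of the 16311 genes tested also did. The adjusted p of this test ran from 1.76e-12 for Mt1 to 0.00867 for Mtf1.

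**Figure D2:**
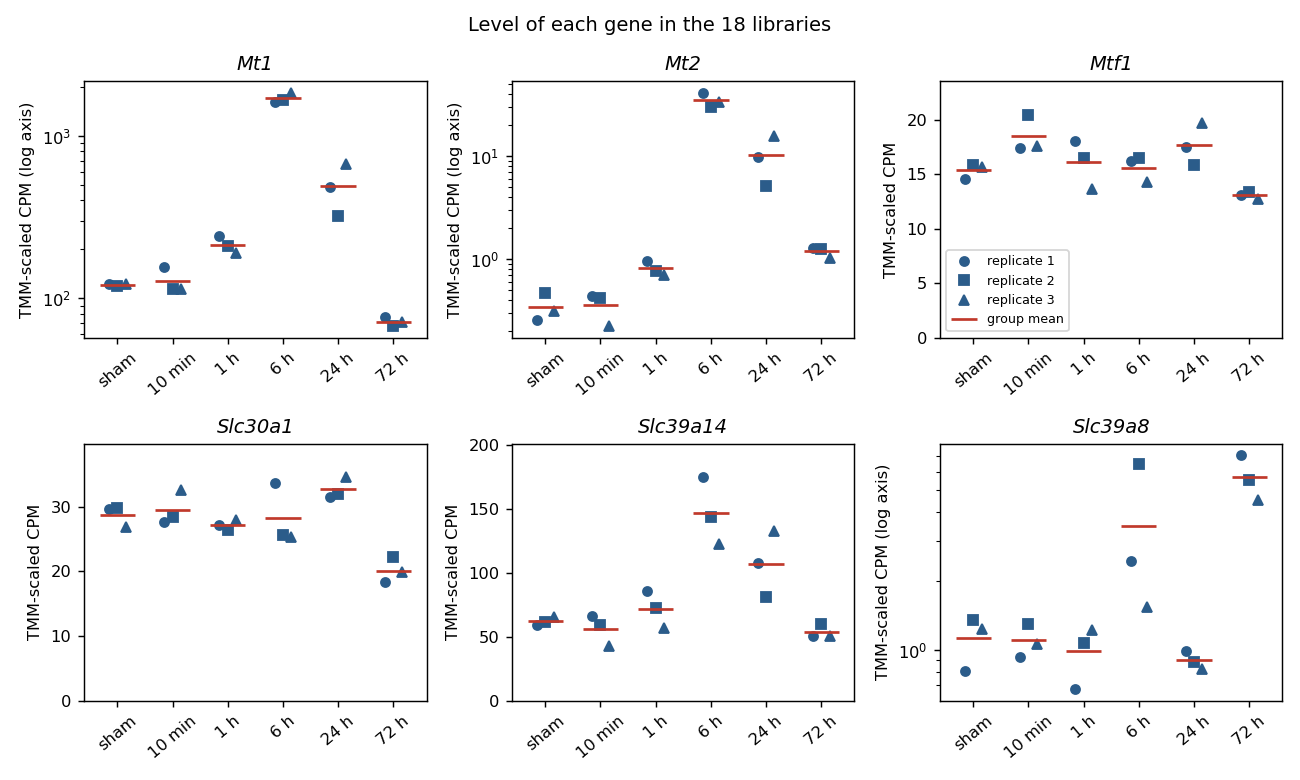
TMM-scaled CPM of each gene (vertical axis, logarithmic for Mt1, Mt2 and Slc39a8, linear from 0 for the others) in the 18 libraries, by group (horizontal axis); symbols mark replicates 1 to 3 and the red line is the mean of the 3 mice. Mt1 and Mt2 peak at 6 h with no overlap with any other group, and the 6 h values of Slc39a8 are spread widely.

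At 10 min, 0 of the 6 genes was called against sham, where 0.0736% of all genes were (0.0307% higher and 0.0429% lower; 12 genes, with 1144 at an unadjusted p under 0.05), and DESeq2 also called 0 of the 6. At 1 h, 0 of the 6 was called by edgeR against 0.294% of all genes (0.288% higher and 0.00613% lower; 48 genes, with 899 at an unadjusted p under 0.05), whereas DESeq2 called 1, which was Mt1. At 6 h, 4 of the 6 were higher than sham and 0 lower; 28.4% of all genes were called, 16.3% as higher. At 24 h, 3 were higher and 0 lower, against 43.8% of all genes called, 23.7% as higher and 20.2% as lower. At 72 h, 2 were higher and 2 lower, in a comparison that called 66.4% of all genes, so that 4 of 6 is near the background. The median log2 fold change of the 6 genes was 0.06, 0.14, 1.44, 0.49 and -0.22 from 10 min to 72 h, and that of all genes tested stayed between -0.01 and 0.03. These 5 comparisons share the same 3 sham libraries.

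Between consecutive times, 0 of the 6 genes was called from 10 min to 1 h (0.307% of all genes, 0.251% higher and 0.0552% lower; 50 genes, with 1212 at an unadjusted p under 0.05; DESeq2 called 1, again Mt1). From 1 h to 6 h, 4 rose and 0 fell (24.5% of all genes called). From 6 h to 24 h, 0 rose and 3 fell (27.8% called). From 24 h to 72 h all 6 changed, with 1 higher and 5 lower, where 50.5% of all genes were called and 26.1% were called lower.

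**Figure D3:**
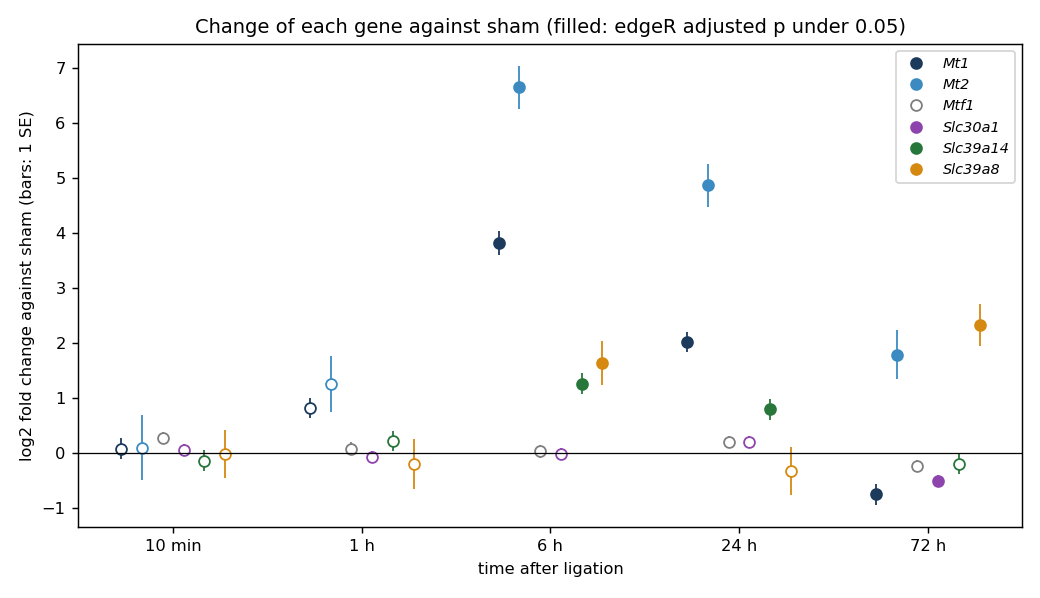
Log2 fold change of each gene against sham (vertical axis, bars 1 standard error from edgeR) at each time after ligation (horizontal axis); filled points passed an adjusted p of 0.05. Mt1 and Mt2 stand highest at 6 h, at 3.81 and 6.64, and at 72 h Mt2 and Slc39a8 are above 0 while Mt1 and Slc30a1 are below it.

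Mt1, a metallothionein gene active in most tissues, was already well expressed in the sham heart. Its sham libraries read 123, 118 and 123 CPM, those at 10 min 156, 114 and 113, and those at 1 h 240, 208 and 189. At 6 h it reached 1610, 1660 and 1840 CPM, at 24 h 482, 320 and 665, and at 72 h 76.5, 67.2 and 71.3. The 10 min and sham values overlapped, the 1 h values were all above both, and the 72 h values were all below sham. In order of mean level the groups ran 6 h, 24 h, 1 h, 10 min, sham and 72 h, and only 10 min and sham, as neighbours in that order, overlapped.

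Set against sham, Mt1 was 14-fold higher at 6 h (3.81 in log2 units, SE 0.21, adjusted p 4.33e-09 in edgeR) and 4.03-fold higher at 24 h (2.01, SE 0.19, adjusted p 1.14e-06). The 1 h difference was 1.75-fold (log2 fold change 0.81, SE 0.19); it did not pass in edgeR (adjusted p 0.114), and it passed in DESeq2 (adjusted p 0.00648), in a fit of only the 6 libraries compared (3.04e-05), and without 24 h replicate 2 (0.00901) or 24 h replicate 3 (0.00642), all with a log2 fold change of 0.81 or 0.82. From 1 h to 6 h Mt1 rose 8.02-fold (adjusted p 6.29e-08), and from 6 h to 24 h it fell 3.48-fold (8.9e-06). From 24 h to 72 h it fell a further 6.82-fold (5.41e-09) and ended below sham, by 0.76 on the log2 scale (log2 fold change -0.76, SE 0.19, adjusted p 0.00171). With library totals as the only scaling, that last difference was -0.18 (adjusted p 0.368), and the median of all genes stood at 0.61 under that scaling.

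Mt1 made up 0.0107 to 0.0118% of all counts in sham and 0.133 to 0.16% at 6 h, and its rank among all genes by count moved from 1096 to 1191 in sham to 46 to 49 at 6 h. The 3 mice at 6 h were close to each other, with a coefficient of variation of 7.28%, whereas those at 24 h varied by 35.3%. Neutrophil markers at 6 h summed to 752, 269 and 101 CPM in replicates 1, 2 and 3, the reverse of the order of Mt1 in the same hearts. At 24 h the markers summed to 173, 43 and 745, the same order as Mt1, and the cardiomyocyte markers were lowest in replicate 3, at 27000; the part of either in the Mt1 level was not tested.

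Mt2, the neighbouring metallothionein gene, was near the limit of detection in sham and showed the largest fold change of the 6. Its sham libraries held 5, 9 and 7 counts (0.253, 0.467 and 0.311 CPM), its 10 min libraries 0.436, 0.42 and 0.223 CPM and its 1 h libraries 0.966, 0.77 and 0.7 CPM. At 6 h it held 692, 623 and 622 counts, or 41.2, 29.8 and 33.1 CPM. At 24 h it stood at 9.88, 5.09 and 15.6 CPM, and at 72 h at 1.29, 1.25 and 1.02 CPM. The 10 min values overlapped sham, and every later library was above all sham libraries.

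Mt2 was 100-fold above its sham level at 6 h (6.64 in log2 units, SE 0.39, adjusted p 1.04e-08 in edgeR) and 29.1-fold higher at 24 h (4.86, SE 0.39, adjusted p 2.51e-07). It was still 3.44-fold higher at 72 h (1.78, SE 0.45, adjusted p 0.00223), when Mt1 was below sham. The 1 h difference, 1.25 with an SE of 0.51, did not pass (adjusted p 0.792). Mt2 fell 3.44-fold from 6 h to 24 h (adjusted p 0.000186) and 8.47-fold from 24 h to 72 h (3.56e-07). The counting bears on these values: 432 of the 588 exonic bases of Mt2 (73.5%) lie under an exon of Gm45774 on the opposite strand, and only the last 156 bases, chr8:94173413-94173568, are free of it. Whether reads were assigned by strand, and how reads shared by 2 genes were treated, is not given in the sources used here. Gm45774 itself held 36, 21 and 34 counts in the 6 h libraries and at most 6 elsewhere.

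The balance between the counts of the metallothionein genes shifted with time. In log2 units, the Mt1 to Mt2 count ratio was 8.41 ± 0.46 in sham, 8.40 ± 0.40 at 10 min and 7.99 ± 0.06 at 1 h (mean ± SD, n = 3 mice). It was 5.63 ± 0.30 at 6 h, 5.66 ± 0.28 at 24 h and 5.90 ± 0.19 at 72 h (mean ± SD, n = 3 mice). Per Mt2 count there were thus 379 ± 119 Mt1 counts in sham and 50.1 ± 9.66 at 6 h (mean ± SD, n = 3). No library from sham to 1 h was below 7.90 and none from 6 h on was above 6.11. A one-sided permutation test of the between-group sum of squares (29.4, with 100000 permutations of the 18 libraries) gave p = 0.00016. The ratio is taken within a library and so does not depend on how library totals were scaled. Because of the overlap with Gm45774, the ratio describes counts and does not give the true number of Mt1 transcripts per Mt2 transcript. If reads shared with Gm45774 were dropped, Mt2 counts would come from its last 156 bases only. Whether the ratio of transcripts shifted as the ratio of counts did was not tested. The transcripts of the genes share no identical run longer than 20 bases.

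**Figure D4:**
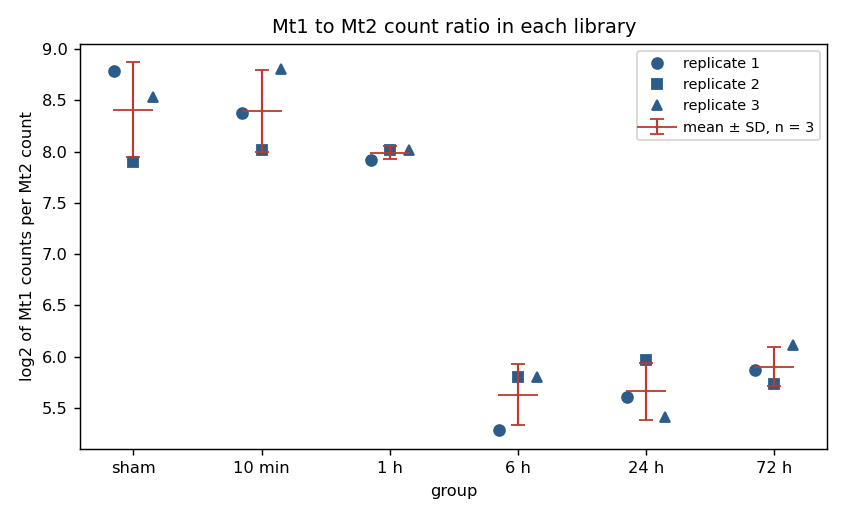
Log2 of the number of Mt1 counts per Mt2 count (vertical axis) in each of the 18 libraries, by group (horizontal axis); symbols mark replicates and red bars the mean ± SD of 3 mice. The 9 libraries from sham, 10 min and 1 h lie at 7.90 to 8.81 and the 9 from 6 h, 24 h and 72 h at 5.28 to 6.11.

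Mtf1, the transcription factor that senses zinc, differed little between groups in transcript level. Its libraries read 14.6, 15.9 and 15.7 CPM in sham, 17.4, 20.5 and 17.6 at 10 min, and 18.1, 16.5 and 13.7 at 1 h. They read 16.2, 16.5 and 14.3 CPM at 6 h, 17.5, 15.9 and 19.7 at 24 h, and 13.1, 13.4 and 12.7 at 72 h. Neighbours in the order of means all overlapped, apart from sham and 72 h, the lowest group. At 6 h, when Mt1 and Mt2 peaked, the Mtf1 log2 fold change was 0.02 (SE 0.12, edgeR adjusted p 0.902). None of the comparisons with sham passed; the smallest adjusted p was 0.0747, at 72 h (-0.24, SE 0.11). That 72 h difference passed in a fit of only the 6 libraries compared (-0.23, adjusted p 0.038) and turned to 0.35 with library totals as the only scaling (adjusted p 0.0193), which also called the 24 h difference (0.39, adjusted p 0.0171, against 0.20 with TMM). Mtf1 fell 1.35-fold from 24 h to 72 h (-0.44, SE 0.11, adjusted p 0.00352), a change of -0.04 that did not pass with library totals alone. Of its exonic bases, 8.1% lie under 1110065P20Rik on the opposite strand.

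Slc39a14, the zinc, iron and manganese importer ZIP14, was raised at 6 h and 24 h, as the metallothioneins were. Its libraries read 59.1, 61.7 and 65.4 CPM in sham, 66.1, 59.3 and 42.8 at 10 min, and 85.7, 72.6 and 56.8 at 1 h. They read 175, 144 and 123 CPM at 6 h, 108, 81.2 and 133 at 24 h, and 50.6, 60.1 and 50.8 at 72 h. The 6 h and 24 h libraries were all above sham and overlapped each other; all other neighbours in the order of means overlapped as well. Slc39a14 was 2.38-fold higher than sham at 6 h (1.25 in log2 units, SE 0.19, adjusted p 0.000188 in edgeR) and 1.73-fold higher at 24 h (0.79, SE 0.19, adjusted p 0.00316). It rose 2.05-fold from 1 h to 6 h (adjusted p 0.00104). The fall from 6 h to 24 h, by 0.46 on the log2 scale, did not pass (adjusted p 0.0793), and that from 24 h to 72 h was 1.99-fold (adjusted p 0.000335). At 72 h it stood at -0.20 against sham (adjusted p 0.352), passed in a fit of only the 6 libraries compared (-0.20, adjusted p 0.0486) and turned to 0.38 with library totals alone (adjusted p 0.0569). Among the 3 hearts at 6 h, Slc39a14 and the neutrophil markers were both highest in replicate 1 and lowest in replicate 3, and at 24 h both were highest in replicate 3 and lowest in replicate 2; their part in the result was not tested.

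Slc39a8, the related importer ZIP8, was expressed at 1.13 ± 0.286 CPM in sham (mean ± SD, n = 3) and was raised at 6 h and 72 h, with a low level between. Its libraries read 0.809, 1.35 and 1.24 CPM in sham, 0.934, 1.3 and 1.06 at 10 min, and 0.676, 1.07 and 1.22 at 1 h. They read 2.44, 6.46 and 1.54 CPM at 6 h, 0.993, 0.884 and 0.825 at 24 h, and 7.07, 5.54 and 4.52 at 72 h. The 6 h values were all above sham but had a coefficient of variation of 75.1%, and the 24 h values overlapped sham again. Against sham, Slc39a8 was 3.09-fold higher at 6 h (1.63 in log2 units, SE 0.40, adjusted p 0.0057 in edgeR) and 5.01-fold higher at 72 h (2.32, SE 0.39, adjusted p 4.06e-05). The 6 h call rested on replicate 2: without it the log2 fold change was 0.80 (adjusted p 0.0659), and in a fit of only the 6 libraries compared it was 1.63 (adjusted p 0.0548). The fall from 6 h to 24 h (-1.96, SE 0.41, adjusted p 0.0019) also did not pass with only the 6 libraries compared (adjusted p 0.0566), and without 6 h replicate 2 it was -1.13 (adjusted p 0.0154). Likewise the rise from 1 h to 6 h was 1.84 (SE 0.41, adjusted p 0.00384), and 1.02 without that replicate (adjusted p 0.0295). From 24 h to 72 h Slc39a8 rose 6.29-fold (2.65, SE 0.40, adjusted p 2.26e-05).

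Markers of other cells moved beside Slc39a8. At 72 h, fibroblast and macrophage markers were also highest, at 9970 to 12500 and 2750 to 3560 CPM; their part in the Slc39a8 level was not tested. At 6 h, replicate 2 was not the highest of the 3 in its neutrophil sum (269, against 752 in replicate 1), its macrophage and monocyte sum (265 against 422) or its endothelial sum (1190 against 1630), but it was the highest in its fibroblast sum (732, against 716 in replicate 1 and 581 in replicate 3) and in its adipocyte sum (2.39, against 1.37 and 0.16). The adipocyte sum came mostly from Cfd, which reached 2.01 CPM at 6 h. Adipoq reached at most 0.239, Plin1 0.179 and Lep 0.0596, and only 1 of the 4 adipocyte markers passed the filter on low counts. The part of any of these markers in the 6 h value of Slc39a8 was not tested.

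Slc30a1, the exporter ZnT1, passed no test against sham up to 24 h with TMM scaling and was lower at 72 h. Its libraries read 29.6, 29.8 and 26.9 CPM in sham, 27.6, 28.5 and 32.6 at 10 min, and 27.2, 26.4 and 27.9 at 1 h. They read 33.7, 25.7 and 25.4 CPM at 6 h, 31.5, 32 and 34.6 at 24 h, and 18.3, 22.3 and 19.9 at 72 h. The 72 h libraries were the lowest of the series and overlapped no other group; all other neighbours in the order of means overlapped. At 6 h the log2 fold change against sham was -0.03 (SE 0.11, edgeR adjusted p 0.885), beside 3.81 for Mt1. At 24 h it was 0.19 (SE 0.11, adjusted p 0.179), and 0.38 with library totals alone (adjusted p 0.0116). At 72 h Slc30a1 was 1.43-fold lower than sham (-0.51, SE 0.11, adjusted p 0.000457), a direction that flipped to 0.08 (adjusted p 0.571) with library totals as the only scaling. From 24 h to 72 h it fell 1.62-fold (-0.70, SE 0.11, adjusted p 3.57e-05), and this fall passed in every alternative fit, with -0.31 under library totals alone. Cardiomyocyte markers fell from 27000 to 41100 CPM at 24 h to 15600 to 21000 at 72 h, and their part in the result was not tested. Of the exonic bases of Slc30a1, 8.9% lie under 1700034H15Rik on the opposite strand.

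To set the genes' levels side by side, CPM was divided by the exonic length of each gene in kilobases. On this per-length scale Mt1 was the most abundant of the 6 in sham, at 97.4 ± 2.69, followed by Slc39a14 at 5.88 ± 0.30 and Slc30a1 at 5.49 ± 0.306 (mean ± SD, n = 3). Mtf1 stood at 1.73 ± 0.0806 and Slc39a8 at 0.148 ± 0.0373 (mean ± SD, n = 3). At 6 h the per-length level was 1370 ± 99.5 for Mt1, 14.0 ± 2.49 for Slc39a14 and 0.454 ± 0.341 for Slc39a8 (mean ± SD, n = 3). At every time the level of Slc39a14 was thus well above that of Slc39a8; at 72 h, where the importers were closest, they stood at 5.10 ± 0.511 and 0.745 ± 0.167 (mean ± SD, n = 3). The length of Mt1, 1246 bases, includes retained introns, whereas a spliced transcript has 549 bases, so its per-length level is a low estimate for spliced RNA. Mt2 is left out of this order because of its overlap with Gm45774.

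Mt3, the metallothionein best known from brain, was the other member of the family that could be tested. It stood at 1.56 ± 0.24 CPM in sham, 3.56 ± 0.947 at 6 h and 0.699 ± 0.086 at 72 h (mean ± SD, n = 3). It was 2.27-fold higher than sham at 6 h (SE 0.31 on the log2 scale, edgeR adjusted p 0.00899) and 2.22-fold lower at 72 h (-1.15, SE 0.34, adjusted p 0.00616), the latter call lost with library totals as the only scaling. Mt4 did not pass the filter on low counts, with at most 0.107 CPM in any library.

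Of 9 other ZnT exporters, 6 were tested. None was called at 10 min or 1 h, where 0.0736% and 0.294% of all genes were. At 6 h 1 was higher and 1 lower (28.4% of all genes called in either direction), at 24 h 3 and 1 (43.8%), and at 72 h 3 and 2 (66.4%). Slc30a7, a Golgi zinc transporter, rose 1.53-fold by 24 h (edgeR adjusted p 0.00226) and 2.23-fold by 72 h (1.07e-06). Slc30a5, which works in the early secretory pathway, was 1.2-fold higher at 24 h (adjusted p 0.0278) and 1.51-fold higher at 72 h (1.5e-05). Slc30a9, a mitochondrial zinc transporter, fell instead, by 1.33-fold at 24 h (0.00321) and 2.01-fold at 72 h (8.41e-08), as the mitochondrial share of counts also fell; the part of that share was not tested. The 6 h calls were Slc30a4 as higher (0.89, adjusted p 0.00406) and Slc30a2 as lower (-0.84, adjusted p 0.0435), both named after their values were seen. The median log2 fold change of the 6 exporters was -0.07, 0.26 and 0.44 at 6, 24 and 72 h.

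Of 12 other ZIP importers, 11 were tested. At 6 h 3 were higher than sham and 1 lower, at 24 h 5 and 0, and at 72 h 7 and 1. The share called in either direction was near that of all genes, which was 28.4% at 6 h, 43.8% at 24 h and 66.4% at 72 h. By direction, 16.3% of all genes were higher and 12.2% lower at 6 h. The shares were 23.7% and 20.2% at 24 h, and 34.2% and 32.2% at 72 h. The importers called at 24 h and 72 h thus leaned more to higher than all genes did. None was called at 10 min or 1 h, where 0.0736% and 0.294% of all genes were. The median log2 fold change over the 11 was -0.05, 0.63 and 0.41 at 6, 24 and 72 h. Slc39a1, a plasma membrane importer, was raised by nearly the same amount from 6 h on, with log2 fold changes of 0.87, 0.91 and 0.91 (SE 0.08 each) and adjusted p of 1.66e-06, 6.02e-07 and 2.52e-08. Slc39a6, another plasma membrane importer, climbed 1.98-fold at 6 h (adjusted p 0.000515), 3.28-fold at 24 h (1.46e-06) and 4.22-fold at 72 h (8.83e-09). Slc39a11, which has been placed in the Golgi, was 1.99-fold higher at 24 h (8.65e-05) and 5.06-fold higher at 72 h (4.9e-10). At 72 h Slc39a6 stood at 24.5 ± 4 CPM and Slc39a11 at 17.1 ± 2.41 (mean ± SD, n = 3), both above the 5.71 ± 1.28 of Slc39a8 in CPM. On the per-length scale the same levels were 6.02 ± 0.983, 5.11 ± 0.717 and 0.745 ± 0.167 (mean ± SD, n = 3). With library totals alone, 9 importers were called higher and 0 lower at 72 h.

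**Figure D5:**
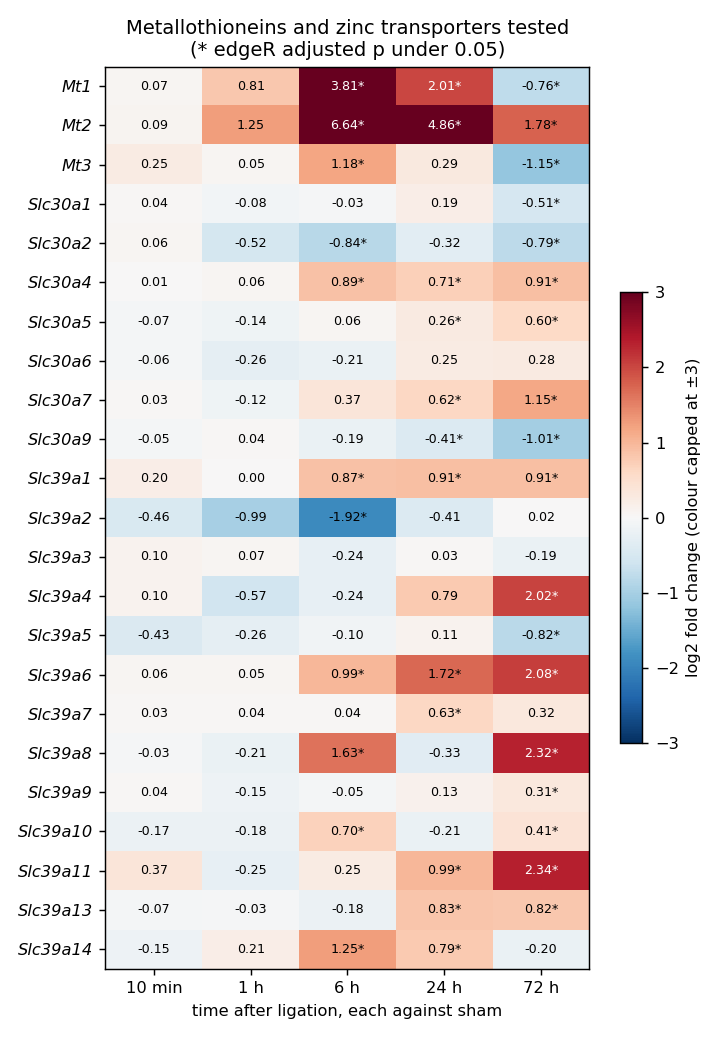
Log2 fold change against sham (colour and printed value, colour capped at 3 in either direction) of the metallothionein and zinc transporter genes tested (rows) at each time after ligation (columns); stars mark an edgeR adjusted p under 0.05. No star appears at 10 min or 1 h, Mt1 and Mt2 carry the strongest colour at 6 h, and Slc39a4, Slc39a6, Slc39a8 and Slc39a11 pass 2 at 72 h.

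Genes of the pathways known to induce metallothioneins were described from lists of 10 to 12 genes. All lists here, those of the transporters included, were chosen with earlier results of these data known. Their shares beside those of all genes are therefore a description and not a test. Of 10 glucocorticoid-responsive genes, 4 were higher than sham at 1 h and 0 lower, where 0.288% of all genes were higher. Those 4 were Sgk1, Dusp1, Errfi1 and Cebpd. The rest of the list, namely Fkbp5, Tsc22d3, Zbtb16, Per1, Klf9 and Pdk4, was not called at 1 h. The smallest edgeR adjusted p among them was 0.626, for Pdk4. At 6 h 8 were higher and 0 lower, against 16.3% and 12.2% of all genes, and at 24 h 4 and 1, against 23.7% and 20.2%. At 72 h 1 was higher and 4 lower, a share below the 66.4% of all genes called in either direction. Sgk1, a kinase gene, was 2.77-fold higher at 1 h (edgeR adjusted p 9.86e-05) and 2.42-fold higher at 6 h (1.37e-05). Dusp1, which encodes a MAP kinase phosphatase, was 5.74-fold higher at 1 h (0.000113) and 2.44-fold higher at 6 h (0.00116); it is also a known immediate early gene. Klf9, a transcription factor gene of the same list, was not called at either time and was 3.51-fold lower at 72 h (3.52e-07). The list's median log2 fold change was 1.35 at 1 h and 1.46 at 6 h.

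Of 12 interleukin-6 and STAT3 genes, 1 was higher than sham at 1 h, where 0.288% of all genes were. All 12 were higher at 6 h (16.3% of all genes), 11 at 24 h (23.7%) and 9 at 72 h (34.2%), with 0 lower at any of these times. Their median log2 fold change was 3.43 at 6 h, beside -0.01 for all genes tested. Osmr, the oncostatin M receptor gene, was 4.86-fold higher at 6 h (edgeR adjusted p 9.61e-07) and 1.94-fold higher at 72 h (0.000231). Stat3 itself was 2.78-fold higher at 6 h (3.86e-06), 2.04-fold higher at 24 h (4.81e-05) and no longer called at 72 h (0.0765). Timp1, a metalloproteinase inhibitor gene, went on to 114-fold at 72 h (3.22e-10), when Mt1 had fallen below sham.

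Of 10 oxidative stress genes, 7 were higher than sham at 6 h (16.3% of all genes) and 8 at 24 h (23.7%), with 0 lower at either, and at 72 h 8 were higher and 1 lower (34.2% and 32.2% of all genes). Hmox1, heme oxygenase 1, was 19.3-fold higher at 6 h (edgeR adjusted p 9.78e-05) and 64.7-fold higher at 72 h (5.36e-07), and G6pdx, of the pentose phosphate pathway, was 5.95-fold higher at 72 h (1.11e-09). Prdx1, a peroxiredoxin, was called only at 72 h, 1.6-fold higher (6.5e-07). Of 10 hypoxia genes, 5 were higher at 6 h and 5 at 24 h, with 0 lower at either, beside the same shares of all genes. At 72 h 1 was higher and 4 lower, a share below the 66.4% of all genes called. Bnip3, a mitophagy receptor gene, was 1.74-fold higher at 6 h (0.00179) and 1.94-fold lower at 72 h (6.23e-05); Car9, a carbonic anhydrase, was 4.15-fold higher at 24 h (0.000148); and Pdk1, a pyruvate dehydrogenase kinase, was 2.26-fold lower at 72 h (5.28e-08).

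Slc39a14 and Slc39a8 also carry iron and manganese, so 11 other genes of iron, copper and manganese handling were listed, of which 9 were tested. At 6 h 3 were higher than sham and 0 lower, a share near the 28.4% of all genes called in either direction (16.3% higher). At 24 h the numbers were 1 and 0, and at 72 h 3 and 1, both below the background of 43.8% and 66.4%. Ftl1, the ferritin light chain, climbed 1.67-fold at 6 h (edgeR adjusted p 0.00445), 3.01-fold at 24 h (4.18e-06) and 10.8-fold at 72 h (6.58e-11). Cp, the copper-carrying ferroxidase ceruloplasmin, was 1.56-fold higher at 6 h (0.00238) and 1.3-fold lower at 72 h (0.0242). Atp7a, a copper exporter, was 2.05-fold higher at 6 h (0.0109) and 2.82-fold higher at 72 h (0.000119). With library totals as the only scaling, which raised the median of all genes by 0.61 at 72 h, 7 genes of this list were higher then and 0 lower. Under that scaling the 72 h counts were 3 higher and 4 lower for the glucocorticoid list, 12 and 0 for interleukin-6 and STAT3, 9 and 1 for oxidative stress, 3 and 3 for hypoxia, and 4 and 1 for the ZnT exporters.

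The genes whose course was most like that of each member were ranked by Pearson's r of log2 CPM over the 18 libraries. The ranking was among 11681 tested genes that averaged 50 or more counts. Predicted genes, genes named only by a clone and genes without a symbol were left out of it. The r values are a description: the libraries share their groups, and so their times. Closest to Mt1 were Lrg1 (r = 0.978), Tinagl1 (0.971), Ptp4a1 (0.965), Dlgap4 (0.961) and Ifrd1 (0.961). Lrg1, a secreted leucine-rich glycoprotein, averaged 43.7 ± 3.64 CPM in the sham hearts, 236 ± 42.7 after 6 h and 23.6 ± 3.03 after 72 h (mean ± SD, n = 3). Closest to Mt2 were Syt12 (0.976), Hbegf (0.975), Cyb561 (0.972), Lcn2 (0.972) and Tmem88b (0.969). For Slc39a14 they were Ampd3 (0.958), Rab11a (0.953), Eif5 (0.952), Ppp2ca (0.948) and Raph1 (0.947).

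The remaining members had looser companions. Slc39a8 was closest to Cd302 (r = 0.906), Irgm2 (0.896), C3 (0.887), Mgp (0.887) and Galnt16 (0.883), again over 18 libraries. Slc30a1 was closest to Ppp1r3d (0.913), Dll4 (0.875), Kat2b (0.867), Rapgef1 (0.866) and Fam217b (0.866). Mtf1, which varied least, was closest to Rprd1b (0.872), Dctn4 (0.845), Zfp180 (0.842), Celf1 (0.833) and Mars2 (0.798). Among the 6 members themselves, r was 0.90 for Mt1 with Mt2, 0.94 for Mt1 with Slc39a14 and 0.91 for Mt2 with Slc39a14. It was 0.69 for Mtf1 with Slc30a1, -0.73 for Slc39a8 with Slc30a1 and -0.05 for Mt1 with Slc39a8. The r of Mt1 with Mtf1 was 0.27.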

How the data were processed

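The authors deposited read counts per Ensembl gene and FPKM values (fragments scaled by gene length and library total) for 18 libraries. Per the labels' protocols, poly(A) RNA was selected with oligo(dT) beads, fragmented and copied from random hexamers, without molecular identifiers. The submitters' processing notes name cutadapt 1.18, HISAT2 2.1.0, featureCounts and mm10; annotation, strand setting and handling of shared reads are not given in the sources used here. The deposited counts of 30583 genes were used; 71 identifiers had no GENCODE M21 symbol. The FPKM values served only to recover gene lengths, which equalled M21 exon lengths for all 6 genes; the FPKM columns of 6 h replicates 2 and 3 hold each other's counts.

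Counts were fitted with edgeR 4.0.16 in R 4.3.3 (quasi-likelihood, TMM, filterByExpr, 1 mean per group, all 18 libraries), with Benjamini-Hochberg adjustment over 16311 genes and a threshold of 0.05; 14272 genes were filtered out. SE is the absolute log2 fold change divided by the square root of F. Comparisons were each MI group against sham and each consecutive pair of times. The test was tried on simulated counts. The Mt1 to Mt2 ratio used a pseudocount of 0.5 counts. Alternatives were RLE size factors, library totals only, no filter, at least 10 counts in every library, DESeq2 1.42.0, only the 6 libraries compared, a replicate block, and leaving out each library. Named genes were the 6 members, for each list the 3 with the smallest adjusted p over all groups, and for each member the 5 with the highest r. The glucocorticoid list was named in full after its values were seen. The members and lists were chosen with earlier results of these data known. Each library is 1 mouse.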

Additional observations from a re-analysis of the deposited data

How the results depend on the processing

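The rises of Mt1, Mt2 and Slc39a14 at 6 h and 24 h passed in every alternative that tested them, and so did Slc39a8 and Mt2 at 72 h. Mt2 was not tested with at least 10 counts in every library, nor at 10 min with only the 6 libraries compared. With library totals only, 5 of the 6 genes were called at 24 h against sham and 5 at 24 h against 6 h, where 6880 genes of all were called. The share of calls that were higher moved under that scaling from 57.2 to 40.6% at 6 h, from 54 to 75.5% at 24 h and from 51.4 to 79.9% at 72 h. Directions that turned were 0.35 for Mtf1, 0.38 for Slc39a14 and 0.08 for Slc30a1 at 72 h, -0.08 for Mtf1 at 6 h, and -0.03 for Slc30a1 at 6 h against 1 h; in all but the first, the value had not passed under that scaling.

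Genes called at 10 min against sham numbered 12, and 26 without a filter, 58 with DESeq2 and 360 with only the 6 libraries compared. At 1 h against sham there were 48, and 93 and 190 with the last 2; at 1 h against 10 min 50, and 127 and 244, with 1 of the 6 members called in each of those 4 fits. At 24 h against 6 h only 1024 were called with the 6 libraries compared, against 4541. Their causes were not tested.

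Leaving out 1 library at a time, genes called ranged from 0 to 24 (10 min), 31 to 68 (1 h), 2926 to 5319 (6 h), 5466 to 7566 (24 h) and 10056 to 11302 (72 h) against sham, and from 6 to 87, 2481 to 4712, 3607 to 5028 and 7087 to 8496 between consecutive times. Without 6 h replicate 1, 2926 genes were called at 6 h against sham and 2481 against 1 h. Members called ranged from 0 to 1 at 1 h against sham and against 10 min, from 3 to 4 at 6 h and from 3 to 4 at 24 h against 6 h. Values that changed sign were all uncalled. At 10 min they ranged from -0.09 to 0.15 for Mt1, -0.08 to 0.35 for Mt2, -0.22 to 0.10 for Slc39a8, -0.28 to 0.01 for Slc39a14 and -0.04 to 0.08 for Slc30a1. At 1 h they ranged from -0.03 to 0.17 for Mtf1 and -0.40 to 0.01 for Slc39a8 (-0.37 to 0.04 against 10 min). At 6 h they ranged from -0.02 to 0.08 for Mtf1 and -0.17 to 0.04 for Slc30a1, and against 1 h from -0.15 to 0.05 and -0.09 to 0.13.

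With the replicate block, members called stayed at 4 at 6 h and genes called went from 4639 to 4540; no call on a member changed. The labels name no batch, and they do not say whether a replicate number links mice of different groups. Deviations of same-numbered libraries correlated at -0.26 to 0.25 (mean 0.02), with 4 of 45 pairs over 0.1. Of the 18 libraries, 6 were closest to their own number. These values describe the libraries, and a shared day of work was not tested. The Mt2 values in sham and at 10 min rest on 4 to 10 counts per library, which limits their precision. Depth, a low level and reads lost to the overlap with Gm45774 cannot be told apart here.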
